A study of Mus musculus with 6 samples.

Results

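Described here are 10 genes that restrain mitogen-activated protein kinase (MAPK) signalling, whose transcripts were sequenced in biliary epithelial cells of mouse liver. They are the phosphatase genes Dusp1, Dusp4, Dusp5, Dusp6 and Dusp10, the Sprouty genes Spry1, Spry2 and Spry4, and the Sprouty-related genes Spred1 and Spred2. The genes were chosen by name, for their known function, with earlier results of these data known. All 10 were found among the 25302 rows of the expression table. The 3 Control samples had the genotype Sox9fl/fl, in which the gene of the transcription factor Sox9 is flanked by recombination sites but intact. The 3 Sox9cKO samples had the genotype Sox9fl/fl:AlbCre+/-, in which Cre recombinase is driven by the albumin promoter, a promoter active in hepatocytes and in the embryonic precursors that they share with bile duct cells. The floxed alleles were thus common to both groups, and ages were not given. Biliary epithelial cells line the bile ducts.

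MAP kinases carry growth factor and stress signals to the nucleus. Receptor tyrosine kinases act through Ras, Raf and MEK to phosphorylate the kinase ERK, while the kinases JNK and p38 answer mainly to stress and cytokines. Dual-specificity phosphatases (the Dusp genes) remove the activating phosphates from these kinases. Sprouty and Spred proteins act higher up, on the steps between receptor and Raf, and Spred proteins recruit the Ras inhibitor neurofibromin. Many of these genes are themselves switched on by ERK, and the loop limits how long a signal lasts.

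All values are normalized read counts, that is, reads of a gene divided by the size factor of its sample. The libraries held between 11883496 and 16191990 reads in genes. A member had between 322 and 9550 reads in a library, so that all 10 passed the filter on low values. Sox9 itself lay between 6043 and 6293 in the Control samples and between 3165 and 3363 in the Sox9cKO samples, so each library followed its label and the transcript was reduced but not absent. The biliary markers fixed for the comparison (12 genes, Krt19, Krt7, Epcam and Spp1 among them) had summed levels of 145468 to 190143 in Control and 133402 to 196812 in Sox9cKO. Most of that sum was Krt8 (52609 to 60518 in Control, 44817 to 68765 in Sox9cKO), Spp1 (39519 to 74187 and 30026 to 41470) and Krt18 (27031 to 33305 and 23607 to 40328). Single markers moved in different directions. The mean of Spp1 was 55128 in Control and 34136 in Sox9cKO, and that of Krt7 was 1948 and 3958. Markers of other cell types were also present. Their summed levels in Control and Sox9cKO were 18978 to 30087 and 23201 to 37368 for hepatocytes, 1739 to 38784 and 6346 to 39616 for endothelium, 2214 to 2927 and 2436 to 5234 for mesenchymal cells, and 15.0 to 72.4 and 7.92 to 53.9 for erythroid cells. Alb was the largest part of the hepatocyte sum (17384 to 27683 in Control, 21399 to 35363 in Sox9cKO). Reln was the largest part of the mesenchymal sum (1653 to 1797 in Control, 1579 to 2799 in Sox9cKO). Leukocyte and Kupffer markers summed to 1062 to 1137 in Control and to 1519 to 1833 in Sox9cKO. No marker of these lists with a row in the table was at 0 in all 6 samples. Called markers were Krt7 of the biliary, Fgb of the hepatocyte and Csf1r of the leukocyte and Kupffer list, all higher in Sox9cKO.

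Tests (two-sided) of Sox9cKO against Control were run with limma across all genes that averaged 10 or more normalized reads, and a gene was called at a Benjamini-Hochberg (BH) adjusted p under 0.05. Of the 10 members, Dusp1 and Dusp4 were called, both higher in Sox9cKO, and no member was called lower. Over all 17153 genes tested, 2.97% were called (2.03% higher and 0.939% lower). Same-numbered samples of the 2 groups varied together, least so for replicate 1. With the number as a block, limma also called Dusp10 and Spry4, both higher, giving 4 members where 8.05% of all genes were called (5.06% higher and 2.99% lower). Without the block, 5 members had an unadjusted p under 0.05 (Dusp1, Dusp4, Dusp6, Dusp10 and Spry4), as did 17.8% of all genes. The median log2 fold change of the members was 0.33, beside 0.036 over all tested genes. The Sox9cKO values lay wholly above the Control values for 4 members, all of them phosphatase genes (Dusp1, Dusp4, Dusp6 and Dusp10), where 24.2% of all tested genes had groups that did not overlap and 13.4% lay higher in Sox9cKO. The other 6 members, among them all 5 Sprouty and Spred genes, had overlapping groups. In 3 of 3 same-numbered pairs, 6 members were higher in Sox9cKO and 1 was lower, where 26.7% of all tested genes were higher.

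**Figure D1:**
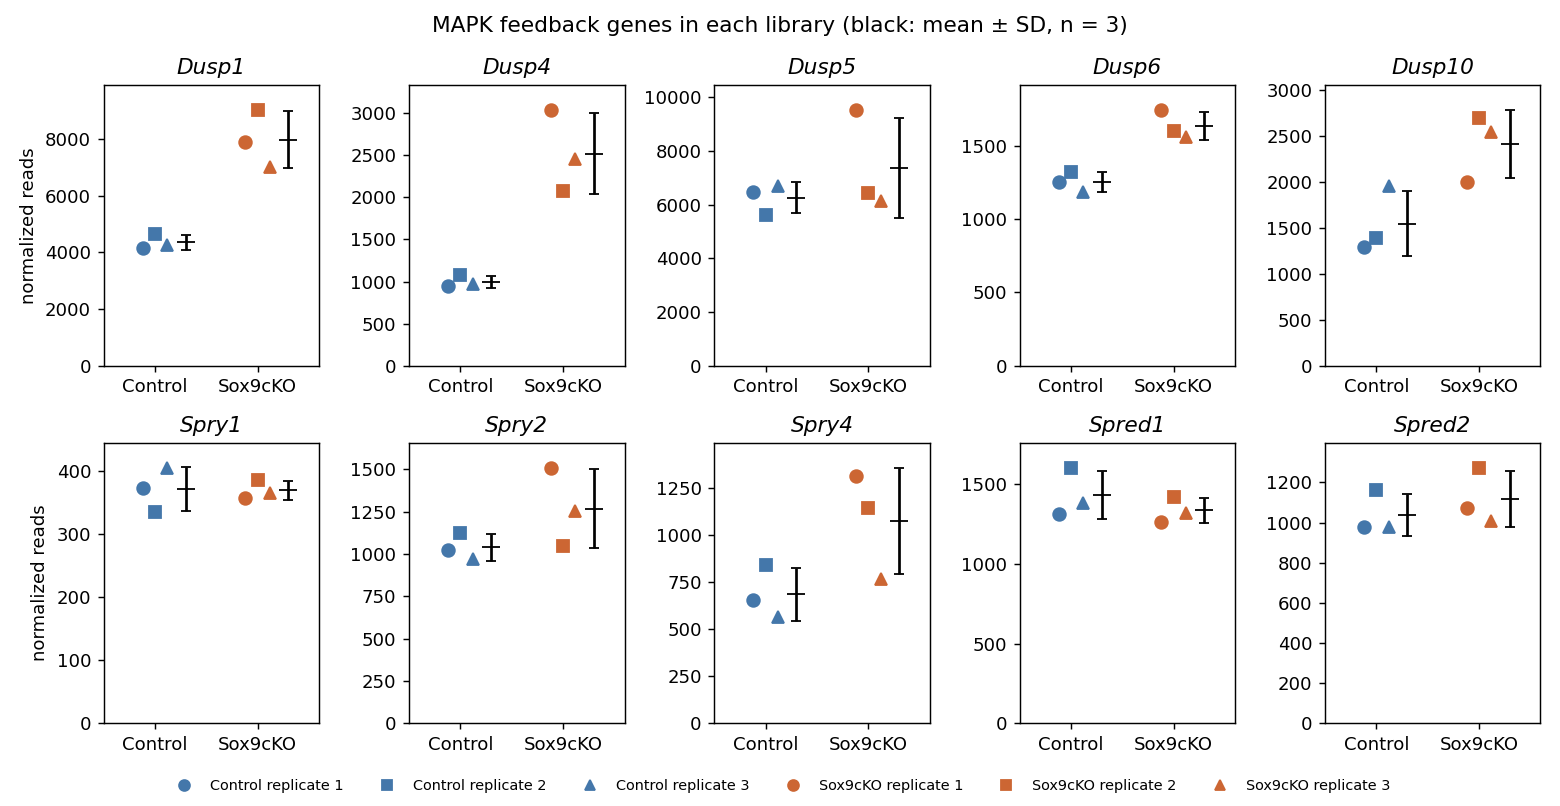
Normalized reads (vertical axes, from 0) of each of the 10 feedback genes in every library, with the mean and SD of each group of 3 in black. Dusp1, Dusp4, Dusp6 and Dusp10 show no overlap between Control and Sox9cKO, whereas the Spry and Spred panels overlap.

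Dusp4 encodes a nuclear phosphatase of ERK, JNK and p38 and had the largest change among the members. In replicate order, the Control libraries had 943, 1081 and 974 normalized reads and the Sox9cKO libraries 3031, 2073 and 2453. The lowest Sox9cKO library was thus well above the highest Control library. The means were 999 ± 72.6 and 2519 ± 482 (SD, n = 3), and the fitted log2 fold change was 1.32 (SE 0.16, limma, BH-adjusted p = 0.00715). Dusp4 (ENSMUSG00000031530) was called under all 19 alternatives tried, with log2 fold changes from 1.18 to 1.45.

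Dusp1 encodes the classical immediate early phosphatase, a nuclear enzyme that acts mainly on p38 and JNK and also on ERK. It had 4168, 4652 and 4256 normalized reads in Control and 7905, 9005 and 7008 in Sox9cKO, again without overlap. The means were 4358 ± 258 and 7973 ± 1001 (SD, n = 3), with a fitted log2 fold change of 0.87 (SE 0.13, limma, BH-adjusted p = 0.0151). Dusp1 (ENSMUSG00000024190) was higher in each of the 3 same-numbered pairs. Without Control replicate 1 or Control replicate 3 its limma BH-adjusted p was 0.0876 and 0.0727, at log2 fold changes of 0.83 and 0.85, and without the intensity trend it was 0.0544.

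The sequences before the start sites of Dusp1 and Dusp5 are shown because they held the only matches to a set of 6 motifs among the members with a window. These 2 genes were also the members with the highest levels per length. RefSeq windows were found for 8 of the 10 members, with none for Dusp4 and Spry4. The 250 bases before each start were searched on both strands for the cAMP response element (TGACGTCA), the E box (CACGTG), the AP-1 site (TGACTCA), an ETS site (CCGGAAG), a SOX site (ACAATGG or ACAAAGG) and the CArG box, the site of serum response factor. Matches are in capitals, and each line runs 5′ to 3′ on the strand of the gene.
Dusp1, chr17:26508473-26508722 of GRCm38.p6, minus strand: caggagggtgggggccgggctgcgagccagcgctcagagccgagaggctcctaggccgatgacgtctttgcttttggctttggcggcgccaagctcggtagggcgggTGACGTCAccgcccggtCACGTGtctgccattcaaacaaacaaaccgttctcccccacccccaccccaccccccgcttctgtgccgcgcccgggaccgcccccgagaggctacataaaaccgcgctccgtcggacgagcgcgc
Dusp5, chr19:53528895-53529144 of GRCm38.p6, plus strand: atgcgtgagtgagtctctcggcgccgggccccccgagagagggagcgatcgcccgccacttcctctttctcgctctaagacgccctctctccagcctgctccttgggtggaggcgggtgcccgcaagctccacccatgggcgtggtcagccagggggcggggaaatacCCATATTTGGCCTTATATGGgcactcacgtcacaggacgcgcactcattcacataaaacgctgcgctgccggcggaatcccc

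The Dusp1 window held a cAMP response element that began 143 bases before the start and an E box that began 126 bases before it. Among all 32851 RefSeq windows, 1.55% held that response element and 6.02% an E box. The Dusp5 window held a pair of adjoining CArG boxes, which began 82 and 72 bases before the start, and 1.47% of all windows held at least 1. None of the 8 windows held the AP-1, ETS or SOX letters, which occurred in 4.46%, 6.91% and 7.92% of all windows. A match describes these letters only. Dusp1 was called and Dusp5 was not, so the 2 printed windows belong to members that differed in the test.

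Dusp5 encodes a nuclear phosphatase specific for ERK. Its normalized reads were 6482, 5597 and 6690 in Control and 9501, 6438 and 6146 in Sox9cKO. A single library, Sox9cKO replicate 1, stood above the rest, and the other 5 lay between 5597 and 6690. The log2 fold change was 0.21 with a 95% interval of -0.22 to 0.64 (limma, BH-adjusted p = 0.616), and without Sox9cKO replicate 1 it was 0.012.

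Dusp6 encodes the cytoplasmic phosphatase specific for ERK, and its transcript is a common readout of fibroblast growth factor signalling. It had 1254, 1323 and 1182 normalized reads in Control and 1740, 1601 and 1561 in Sox9cKO. The groups did not overlap and each of them was tight, with means of 1253 ± 70.7 and 1634 ± 94.0 (SD, n = 3). The log2 fold change of 0.38 (95% interval 0.13 to 0.63) did not pass the threshold (limma, BH-adjusted p = 0.122, or 0.0659 with the replicate block).

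Dusp10 encodes a phosphatase that prefers JNK and p38. Its normalized reads were 1298, 1390 and 1956 in Control and 1999, 2695 and 2543 in Sox9cKO. The groups did not overlap, but Control replicate 3 came close to Sox9cKO replicate 1. The log2 fold change was 0.65 with a 95% interval of 0.20 to 1.10 (limma, BH-adjusted p = 0.135). With the replicate block the adjusted p from limma was 0.0314 and from edgeR 0.0452, and Dusp10 was higher in 3 of 3 same-numbered pairs.

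**Figure D2:**
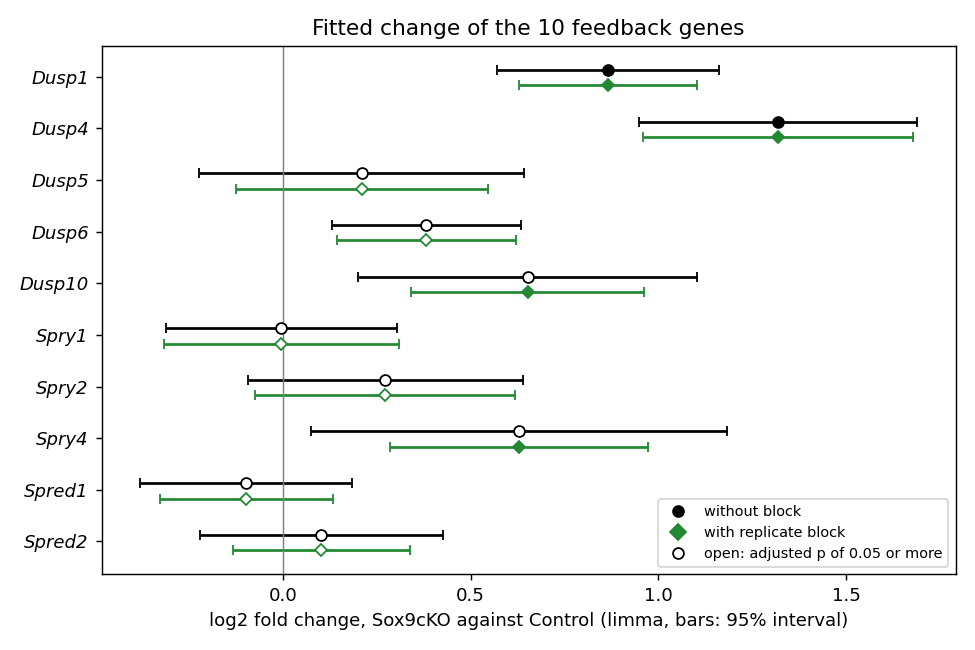
Log2 fold change of each of the 10 feedback genes (horizontal axis, Sox9cKO against Control) with its 95% interval from limma, without and with the replicate number as a block, and filled symbols where the adjusted p was under 0.05. Dusp1 and Dusp4 are filled in both fits and Dusp10 and Spry4 with the block alone.

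Spry4, a Sprouty gene induced by growth factors, had the largest fitted difference of the Sprouty genes. It had 655, 839 and 563 normalized reads in Control and 1314, 1142 and 764 in Sox9cKO. Sox9cKO replicate 3 lay below Control replicate 2, so the groups overlapped. Sox9cKO was higher within each of the 3 same-numbered pairs, as it was for 26.7% of all tested genes. The log2 fold change was 0.63 with a 95% interval of 0.075 to 1.18 (limma, BH-adjusted p = 0.224, and 0.0471 once the replicate block was added). With edgeR and the block the adjusted p was 0.0689.

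The summed level of the 10 endothelial markers differed widely within groups, and the Spry4 values moved with it. In replicate order, that sum was 12235, 38784 and 1739 for the Control libraries and 30543, 39616 and 6346 for the Sox9cKO libraries. In the Control samples Spry4 and the endothelial sum had the same order, and in Sox9cKO both were lowest in replicate 3. With the endothelial score (the mean log2 level of these markers) as a covariate, an alternative chosen after seeing the data, the log2 fold change of Spry4 was 0.45 (limma, BH-adjusted p = 0.180). With the same covariate, under which 3.66% of all genes were called, Dusp4 and Dusp1 were still called, with log2 fold changes of 1.30 and 0.81 (limma, BH-adjusted p = 0.00811 and 0.0167), and Dusp10 had 0.76 (limma, BH-adjusted p = 0.0542). In bulk samples, fewer cells of a type and less RNA per cell cannot be told apart. The part of the leukocyte and Kupffer sum, whose groups did not overlap either, in the results for Dusp1 and Dusp4 was not tested. Csf1r, the macrophage receptor gene, made up most of that sum (705 to 797 in Control, 1266 to 1638 in Sox9cKO). Other markers of the list lay the other way: Ptprc, the pan-leukocyte marker, had 19.6 to 37.0 normalized reads in Control and 1.13 to 16.9 in Sox9cKO, and Cd68 had 150 to 176 and 113 to 135, both without overlap and neither called. Lyz2 had 21.9 to 65.9 and 7.92 to 22.7 and was called lower with the replicate block alone (limma, BH-adjusted p = 0.0417).

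**Figure D3:**
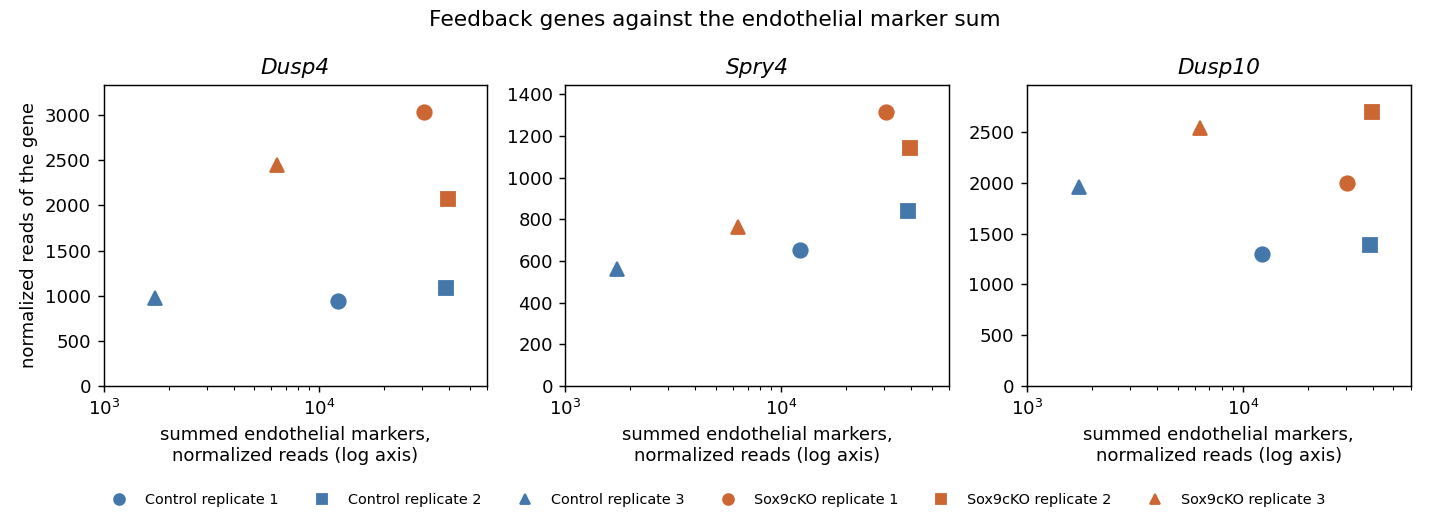
Normalized reads of Dusp4, Spry4 and Dusp10 (vertical axes, from 0) against the summed normalized reads of 10 endothelial markers (horizontal log axis), 1 point per library. Dusp4 is higher in each Sox9cKO library than in any Control library. Spry4 is lowest in replicate 3 of each group, where the endothelial sum is 1739 and 6346. The endothelial sums of the groups are nearest in replicate 2 (38784 in Control and 39616 in Sox9cKO).

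Spry2, the Sprouty gene best known for binding the ubiquitin ligase Cbl, had 1021, 1126 and 972 normalized reads in Control and 1507, 1045 and 1252 in Sox9cKO. Sox9cKO replicate 2 lay inside the Control range. The log2 fold change was 0.27 with a 95% interval of -0.093 to 0.64 (limma, BH-adjusted p = 0.422), and without Sox9cKO replicate 1 it was 0.14. Spry1 had 373, 335 and 404 normalized reads in Control and 357, 386 and 365 in Sox9cKO, all within the Control range in the latter group. Its log2 fold change was -0.0035 with a 95% interval of -0.31 to 0.30 (limma, BH-adjusted p = 0.993). Its sign was reversed under 7 of 19 alternatives, and it had no direction.

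Spred1 and Spred2, whose products recruit neurofibromin to the membrane, both had overlapping groups and intervals that included 0. Spred1 had 1315, 1602 and 1381 normalized reads in Control and 1267, 1422 and 1321 in Sox9cKO, with a log2 fold change of -0.097 and a 95% interval of -0.38 to 0.19 (limma, BH-adjusted p = 0.735). It was lower in 3 of 3 same-numbered pairs, by at most 0.17 on the log2 scale. Spred2 had 977, 1160 and 977 normalized reads in Control and 1073, 1271 and 1005 in Sox9cKO, with a log2 fold change of 0.10 and a 95% interval of -0.22 to 0.43 (limma, BH-adjusted p = 0.755). In both genes replicate 2 was the highest library of its group. The log2 fold change of Spred1 was -0.013 without Control replicate 2, and that of Spred2 was 0.0060 without Sox9cKO replicate 2.

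Levels of different genes were compared per kilobase of exon sequence. In Control, Dusp5 was the most abundant member (2530 ± 235 normalized reads per kilobase, SD, n = 3) and Dusp1 the second (1316 ± 77.9). Dusp10 (509 ± 117) and Spry2 (498 ± 37.6) followed and did not differ beyond their spread, nor did Dusp6 (400 ± 22.6) and Dusp4 (365 ± 26.5). Spred2 (225 ± 22.9) and Spred1 (211 ± 22.2), and then Spry4 (144 ± 29.5) and Spry1 (128 ± 11.95), were again pairs within their spread. In Sox9cKO the order began with Dusp5 (2977 ± 752 per kilobase) and Dusp1 (2408 ± 302), which there lay within their spread of each other. Dusp4 moved from the sixth place to the third (919 ± 176 per kilobase), although Dusp10 (793 ± 120) lay within its spread there. Spry1 was the lowest member in both groups.

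For each member the gene with the most similar profile was sought among 9403 genes, by the root mean square difference of centred log2 values over the 6 samples. The nearest gene to Dusp4 was Pear1 (difference 0.10), which encodes a receptor of platelets and endothelium and was called higher with a log2 fold change of 1.35. The nearest to Dusp1 was Mdk (0.076), which encodes the growth factor midkine and was called higher with 0.94 (limma, BH-adjusted p = 0.0411). Mdk was no longer called in any of the 6 fits that left out 1 library (limma, BH-adjusted p up to 0.152), and Pear1 was not called without Control replicate 1, Control replicate 3 or Sox9cKO replicate 3 (limma, BH-adjusted p up to 0.0955). The nearest gene to Dusp5 was Mrpl2 (0.022), to Dusp6 Dennd10 (0.033), to Dusp10 Vars (0.037) and to Spry4 the cathepsin D gene Ctsd (0.052). The nearest to Spry1 was Fam91a1 (0.012), to Spry2 Nsmce3 (0.043), to Spred1 Pla2g6 (0.037) and to Spred2 Pitpnm1 (0.040). Such likeness over 6 samples is a description. None of these 8 genes was called without the block, and with it Vars and Ctsd were (limma, BH-adjusted p = 0.0249 and 0.0326).

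The rest of the pathway was read from lists of genes with known roles, beginning at the receptors. Over all tested genes 2.97% were called, and 8.05% with the replicate block. Of 16 tested receptor tyrosine kinase genes, 1 was called higher and 2 lower, and the median log2 fold change was -0.047. Egfr, the receptor of epidermal growth factor, rose from 1714 ± 404 to 4426 ± 1337 normalized reads (SD, n = 3), with a log2 fold change of 1.34 (limma, BH-adjusted p = 0.0485). Fgfr4, a fibroblast growth factor receptor of liver, fell from 1029 ± 192 to 232 ± 68.9 (log2 fold change -2.17, limma, BH-adjusted p = 0.00553). Ntrk2, a neurotrophin receptor, fell from 65.8 ± 8.25 to 12.8 ± 7.09 (log2 fold change -2.39, limma, BH-adjusted p = 0.0245). Fgfr4 was called in each of the 6 fits that left out 1 library. Egfr was called in these fits only without Sox9cKO replicate 1, and Ntrk2 likewise, with limma BH-adjusted p-values up to 0.186 and 0.103 in the other 5. Over all 19 alternatives Egfr lost its call in 10. With the replicate block 5 receptor genes were called, now also Fgfr3, lower, and Kit, higher (limma, BH-adjusted p = 0.04998 and 0.0402, and 0.323 and 0.657 without it). Kit had 352, 580 and 56.5 normalized reads in Control and 592, 855 and 166 in Sox9cKO, the order of the endothelial sum in each group. The direction of Kit turned without Control replicate 3 (log2 fold change -0.043, beside 0.95 with all libraries), and it was 0.075 with the endothelial covariate. Fgfr3 and Kit were chosen after their values were seen.

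None of the 27 tested genes of the Ras, Raf, MEK and ERK cascade was called, and their median log2 fold change was 0.053. Mapk3, which encodes ERK1, had 616 ± 80.3 normalized reads in Control and 798 ± 271 in Sox9cKO (SD, n = 3; log2 fold change 0.33, limma, BH-adjusted p = 0.528), and without Sox9cKO replicate 1 its log2 fold change was 0.067. With the replicate block 2 genes of this list were called higher, the scaffold gene Ksr1 (log2 fold change 0.53) and the ERK substrate kinase gene Rps6ka1 (0.74). Their limma BH-adjusted p was 0.0312 and 0.0269 with the block and 0.0898 and 0.0579 without it, and both were chosen after their values were seen. Of 14 tested partners of the Sprouty and Spred proteins and Ras GTPase-activating proteins, 1 was called. This was Rasal1, a Ras GTPase-activating protein gene, which rose from 600 ± 82.2 to 1551 ± 452 (log2 fold change 1.34, limma, BH-adjusted p = 0.0222). Rasal1 was not called without Control replicate 1, 2 or 3 or without Sox9cKO replicate 3 (limma, BH-adjusted p up to 0.109).

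Among 11 other dual-specificity phosphatase genes tested, none was called, and the median log2 fold change was -0.015. With the replicate block Dusp9 was called higher and Dusp8 lower. Dusp9, an ERK phosphatase gene, had 18.3 ± 5.95 normalized reads in Control and 62.9 ± 22.8 in Sox9cKO (SD, n = 3; limma, BH-adjusted p = 0.0252 with the block and 0.0737 without). Dusp8, a JNK phosphatase gene, had 1063 ± 121 and 747 ± 71.1 (limma, BH-adjusted p = 0.0407 with the block and 0.110 without). Both were chosen after their values were seen. The other Spred gene of the table, Spred3, had a log2 fold change of -0.42 (limma, BH-adjusted p = 0.636), which was 0.018 without Sox9cKO replicate 1. None of the 16 tested genes of the JNK and p38 cascades, whose kinases Dusp1 and Dusp10 act on, was called with or without the block, and their median log2 fold change was 0.11.

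**Figure D4:**
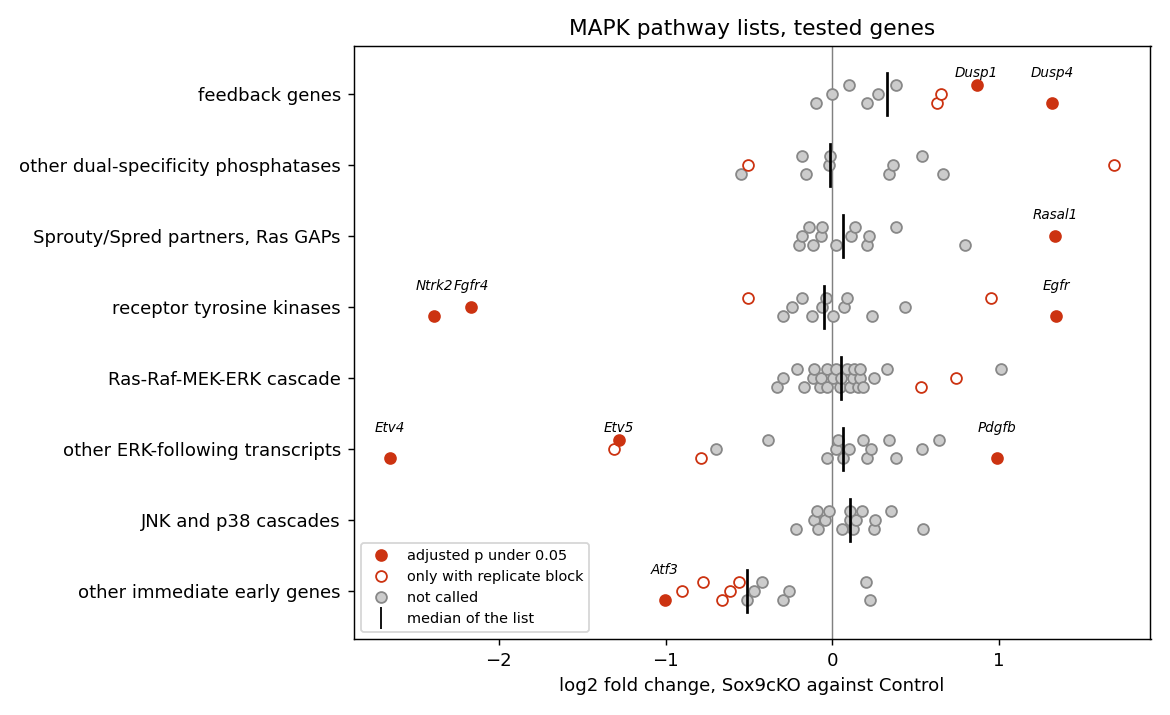
Log2 fold change (horizontal axis, Sox9cKO against Control) of every tested gene of 8 lists of the MAPK pathway, 1 list per line, with the median of each list as a black bar and solid red symbols for called genes. The feedback genes have a median of 0.33, the cascade genes have a median of 0.053 and a range of -0.33 to 1.01, and Etv4, Etv5 and Pdgfb are called in opposite directions within 1 list.

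Other transcripts known to follow ERK activity were called in both directions. Of 19 tested, 1 was called higher and 2 lower (1 and 4 with the replicate block), and the median log2 fold change was 0.065. Etv4 and Etv5 encode ETS transcription factors that, like Dusp6 and the Sprouty genes, are widely used as readouts of fibroblast growth factor signalling. Etv5 had 554, 492 and 578 normalized reads in Control and 238, 187 and 245 in Sox9cKO, and it fell by 1.28 on the log2 scale (limma, BH-adjusted p = 0.00761). Etv4 had 43.7, 69.6 and 39.2 normalized reads in Control and 4.97, 6.62 and 10.2 in Sox9cKO, and it fell by 2.65 (limma, BH-adjusted p = 0.0151). Both genes were lower in all 3 Sox9cKO libraries than in any Control library, the opposite order to that of Dusp1, Dusp4, Dusp6 and Dusp10. Pdgfb, which encodes a platelet-derived growth factor chain, rose from 1677 ± 171 to 3322 ± 282 (SD, n = 3; log2 fold change 0.99, limma, BH-adjusted p = 0.00826). Without Control replicate 1 the limma BH-adjusted p was 0.0506 for Etv5 and 0.0519 for Pdgfb. Etv4 was not called without Control replicate 1, 2 or 3 (limma, BH-adjusted p up to 0.0783).

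Egr1 and Fos, immediate early genes downstream of ERK, did not pass the threshold. Egr1 had 25762, 19567 and 30839 normalized reads in Control and 15615, 14402 and 13408 in Sox9cKO, without overlap (log2 fold change -0.79, limma, BH-adjusted p = 0.0725, and 0.0312 once the replicate block was added). Fos had 28861, 17512 and 20126 normalized reads in Control and 13667, 14930 and 11720 in Sox9cKO, also without overlap (log2 fold change -0.70, limma, BH-adjusted p = 0.133). Egr2, chosen after its values were seen, had 788 ± 323 and 303 ± 64.6 (SD, n = 3; limma, BH-adjusted p = 0.0879, or 0.00469 with the block). Over all tested genes the median log2 fold change was 0.036. Of 13 tested immediate early genes outside the ERK list, 11 had a log2 fold change below 0 and the median was -0.51. Atf3, a stress-induced transcription factor gene, was the 1 gene called among them and fell from 16994 ± 3622 to 8354 ± 537 (log2 fold change -1.005, limma, BH-adjusted p = 0.0263). It was called in these fits only without Control replicate 2 when 1 library was left out (limma, BH-adjusted p up to 0.0968 in the other 5). With the replicate block 6 of the 13 were called, all lower, where 2.99% of all tested genes were called lower. Among these 6 were Fosb (limma, BH-adjusted p = 0.0138) and Klf6 (0.0235), both chosen after their values were seen. Dusp1, an immediate early gene by its known regulation, was thus called in the opposite direction to Atf3 in the same libraries.

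**Figure D5:**
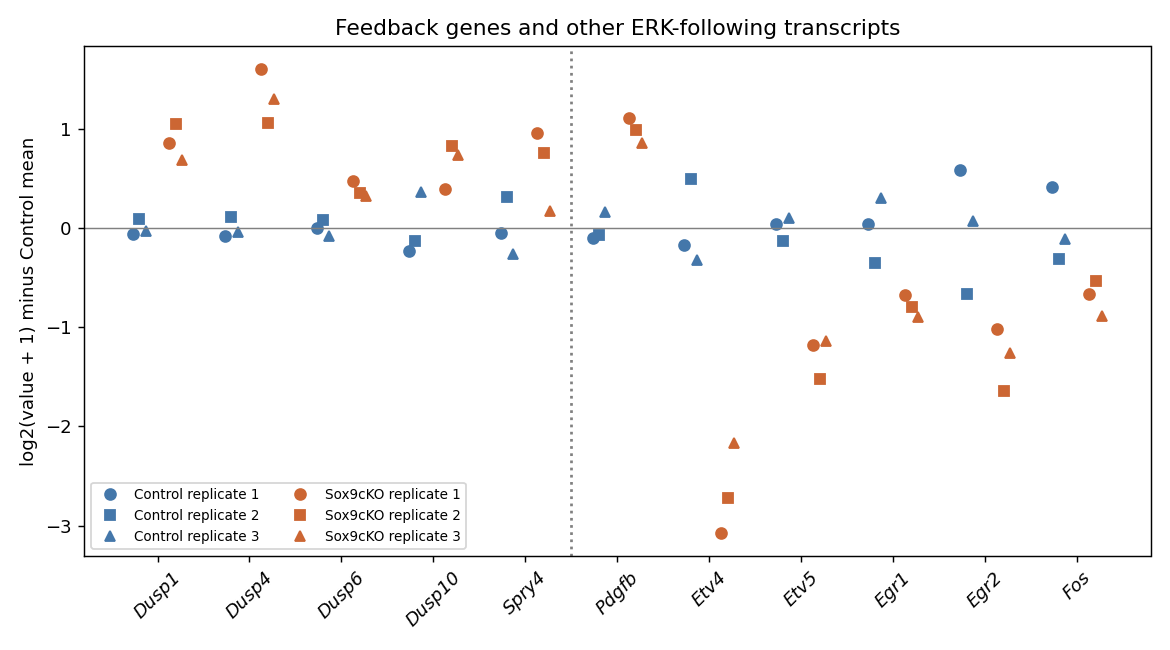
Log2(value + 1) of each library minus the mean of the Control libraries (vertical axis) for 5 feedback genes, left of the dotted line, and 6 other transcripts that follow ERK activity, right of it. The Sox9cKO libraries lie above all Control libraries for Dusp1, Dusp4, Dusp6, Dusp10 and Pdgfb, and below them for Etv4, Etv5, Egr1, Egr2 and Fos. Only a part of each list is shown. Of all 10 feedback genes, 8 had a log2 fold change above 0 and 2 below. Of all 19 tested other transcripts that follow ERK activity, 12 had a log2 fold change above 0 and 7 below. The median log2 fold change over all tested genes was 0.036.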

How the data were processed

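Stranded total RNA libraries with molecular identifiers were made after ribosomal RNA depletion, per the labels. The authors deposited a signal per gene, which the values show to be gene counts divided by 1 size factor per sample: 100% of the values were whole reads (tolerance 0.001 reads). GRCm39 and DESeq2 1.36.0 are named by the submitters' processing notes. The aligner, the counting, the use of strand and of the identifiers are not given in the sources used here. Nothing says that samples came from separate animals, so p-values measure only the spread between these samples.

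The members and gene lists were chosen with earlier results of these data known. Values were tested as log2(value + 1) with limma 3.58.1 in R 4.3.3 (intensity trend, mean of at least 10). The pseudocount understates changes of low genes. The submitters' titles number the replicates 1 to 3. Deviations from the group means correlated across genes at 0.207, 0.472 and 0.542 for replicates 1 to 3. Between samples of different numbers the correlations were -0.437 to 0.048. Deviations from a mean of 3 samples sum to 0, so these values are not independent. The number was used as a block in an alternative fit. edgeR 4.0.16 and DESeq2 1.42.0 were run on the recovered reads, where edgeR called 491 genes. The fits were tested on simulated data without pairing. There, DESeq2 and limma with the replicate block gave a larger share of false calls than limma and edgeR without the block. The real same-numbered samples varied together, so the simulation cannot give the share of false calls among genes called with the block alone. Exon lengths came from GENCODE M21 (GRCm38). Always named were the members, Sox9, Mapk3, Etv4, Etv5, Egr1, Fos, the nearest gene to each member and, from each list, up to 3 of its called genes with the lowest p. Motifs and printed windows were chosen after the values were seen. Dusp26, Spry3, Tf, Cd3e and Nkg7 were not analysed here, and 1 further gene that the rule names is not reported here.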

Additional observations from a re-analysis of the deposited data

How the results depend on the processing

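The member results were recomputed under 12 alternatives, in 6 fits that each left out 1 library, and with the endothelial covariate, which was chosen after seeing the data. The number of members called was 2 under most of them, 1 without the intensity trend (Dusp4), 3 with sample weights and with edgeR and the replicate block (both with Dusp10), and 4 with limma and the replicate block. Over the fits that left out 1 library it was 1 to 2. No member was called lower under any of the 19 alternatives. The median log2 fold change of the members stayed between 0.24 and 0.40. Over all genes, 510 were called, 1043 with sample weights, 1214 with DESeq2, 1381 with the replicate block and 1160 with edgeR and the replicate block, and 200 to 389 when 1 library was left out. What causes this was not tested. The fits that left out 1 library also had fewer samples. Among the members, the pathway lists and the nearest genes, the block changed no calls other than those given beside the results and those of Zfp36, Btg2 and Nr4a1.

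Under quantile normalization the all-gene median log2 fold change was -0.031 in place of 0.036 and the member median was 0.24. The sign turned in 6 of the named genes. Kit had -0.043 to 1.65 and Spred3 -0.82 to 0.018 when 1 library was left out. Spry1 had 0.0037 with TMM factors, 0.020 with sample weights, 0.038 with the endothelial covariate and -0.074 to 0.061 when 1 library was left out. Fam91a1 had 0.018 with sample weights, 0.023 with the endothelial covariate and -0.074 to 0.045 when 1 library was left out. Pla2g6 had 0.021 with sample weights and -0.15 to 0.014 when 1 library was left out, and Pitpnm1 -0.012 with quantile normalization and -0.00050 to 0.16. The cause was not tested.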
